A study of Mus musculus with 6 samples.

Results

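The genes described here encode the proteins of the mitochondrial ribosome, read from messenger RNA of mouse bone marrow neutrophils. Members were all protein-coding genes of the count table whose symbol begins with Mrpl or Mrps followed by a digit, with pseudogenes left out. This gave 78 genes of 51789 in the table. By their known place in the structure, 51 belong to the large subunit and 26 to the small subunit. The large subunit includes Mrps18a and Mrps30 in spite of their names. The remaining gene, Mrps36, encodes a component of the α-ketoglutarate dehydrogenase complex and carries its name by history. Of the 77 ribosomal genes, 46 have a bacterial counterpart and 31 are specific to mitochondria.

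Mitochondrial ribosomes translate the few messenger RNAs of the mitochondrial genome, which code for core subunits of the respiratory chain and of ATP synthase. All of their proteins are encoded in the nucleus, made in the cytosol and imported, while their ribosomal RNAs come from mitochondrial DNA. Mature neutrophils are short-lived cells that hold few mitochondria and take most of their ATP from glycolysis.

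The 6 libraries form 2 groups of 3, labelled WT and KO for Snph, the gene of syntaphilin, which tethers mitochondria to microtubules. Cells were isolated with Ly6G beads, and sequencing used the Lexogen QuantSeq kit, which yields 1 tag near the 3′ end of each polyadenylated transcript, so that levels of different genes were compared without dividing by length. Strain, age, sex, treatment, the deleted part of Snph and the cells in which it was deleted were not given in the sources used here. Separate animals are not stated in the labels either, and p-values therefore measure the spread between these samples alone, and that spread may be technical.

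Total counts ranged from 7018388 to 9664381 per library, so that 1 count corresponded to 0.102 to 0.147 counts per 1e6 (CPM, scaled by TMM factors, the unit of every level below). Snph itself goes against the labels, with 0 counts in all 3 WT-labelled libraries but 5, 2 and 8 in KO 1, 2 and 3. Groups are therefore called by their label throughout, and each direction rests on the labels as they stand. Markers of neutrophils (16 of 16 tested), which include granule genes such as Ltf and Camp, summed to between 288060 and 350810 CPM per library. Ly6g, the surface protein bound by the beads, had a mean of 1047 ± 101 CPM in the WT-labelled libraries (SD, n = 3). In bulk samples, fewer cells of a type and less RNA per cell cannot be told apart.

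Promoter sequences were examined because they are a feature of the family that the choice of genes did not use. RefSeq promoter windows (GRCm38.p6) of 300 bases, from 250 before to 50 after an annotated start, were found for 69 of the 78 genes, which gave 75 windows. Both strands were searched for letters known from binding sites of ETS factors (CCGGAAGT), of NRF1 (GCGC, any base, then TGCGC) and of YY1 (AAGATGGC), and for TATAAA. The ETS letters were in 12 of the 75 windows, 16% against 3.89% of all 32851 windows. The NRF1 letters were in 13 windows, 17.3% against 4.6%. The YY1 letters were in 12 windows, 16% against 2.75%, and TATAAA was in 5 windows, 6.67% against 13.6%. In all, 34 genes held the ETS, NRF1 or YY1 letters, and no match of one motif overlapped a match of another. A match is a description of the letters and does not show binding.

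The windows of the 2 most abundant genes, Mrpl33 and Mrps21, and of the genes with the smallest p in each direction, Mrps18c and Mrpl16, are shown 5′ to 3′ on the strand of the gene, from 200 bases before to 10 bases after the RefSeq start, with the matched letters in capitals. Mrpl33 lies at chr5:31613751-31613960 on the plus strand, with the ETS letters running across the start, from 3 bases before it. Mrps21 lies at chr3:95871505-95871714 on the minus strand, with the NRF1 letters beginning 91 bases before the start. Mrps18c lies at chr5:100798559-100798768 on the plus strand, with the ETS letters on the reverse strand beginning 157 bases before the start. Mrpl16 lies at chr19:11770215-11770424 on the plus strand, with TATAAA beginning 68 bases before the start. The RefSeq start of Mrpl33 lies 17016 bases inside the gene as GENCODE draws it, 5 bases before the nearest GENCODE transcript start. For Mrps21, Mrps18c and Mrpl16 it lies 5, 132 and 24 bases inside the GENCODE gene, and 5, 12 and 3 bases past the nearest transcript start.
Mrpl33: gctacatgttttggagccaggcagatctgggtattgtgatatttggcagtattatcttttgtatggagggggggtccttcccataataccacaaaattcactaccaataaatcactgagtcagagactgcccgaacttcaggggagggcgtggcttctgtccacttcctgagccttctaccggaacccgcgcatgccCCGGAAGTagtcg
Mrps21: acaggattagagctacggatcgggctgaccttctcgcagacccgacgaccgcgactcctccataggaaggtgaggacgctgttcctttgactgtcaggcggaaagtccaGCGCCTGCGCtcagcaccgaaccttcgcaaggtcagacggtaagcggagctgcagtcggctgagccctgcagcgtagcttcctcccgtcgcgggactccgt
Mrps18c: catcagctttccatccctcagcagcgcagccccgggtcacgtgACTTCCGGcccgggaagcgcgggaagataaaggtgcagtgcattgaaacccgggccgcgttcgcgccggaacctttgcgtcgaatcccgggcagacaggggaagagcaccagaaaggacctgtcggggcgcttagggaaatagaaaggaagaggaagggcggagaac
Mrpl16: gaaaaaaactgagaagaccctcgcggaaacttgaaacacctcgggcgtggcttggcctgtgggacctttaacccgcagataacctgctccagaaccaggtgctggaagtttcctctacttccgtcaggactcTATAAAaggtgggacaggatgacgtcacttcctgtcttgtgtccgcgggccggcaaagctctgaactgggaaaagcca

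The 12 genes with the ETS letters had a median level of 16.7 CPM and the 13 with the NRF1 letters one of 14.8 CPM, against 7.65 CPM for all 69 genes with a window. The 12 genes with the YY1 letters had a median level of 6.29 CPM, and the 5 with TATAAA one of 15.3 CPM. These are medians of levels over genes, given without a test. The genes with the ETS letters included Mrpl33, Mrps18c, Mrpl18, Mrpl51, Mrpl43 and Mrpl48 among the more abundant ones, and Mrps22 and Mrps27 among the least abundant.

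Transcripts of nearly the whole family were detected, at low levels. At least 1 count was seen for 78, 78 and 78 of the 78 genes in WT 1, 2 and 3 and for 77, 76 and 78 in KO 1, 2 and 3. The median gene stood at 7.33 CPM, with quartiles of 4.77 and 17.2 CPM. A mean of at least 1 CPM was reached by 76 genes, of at least 10 CPM by 33, of at least 50 CPM by 3 and of at least 100 CPM by 2. For comparison, the median was 40.9 CPM for 37 subunit genes of respiratory complex I, 213 CPM for 86 genes of cytosolic ribosomal proteins and 13.8 CPM for all genes tested.

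**Figure D1:**
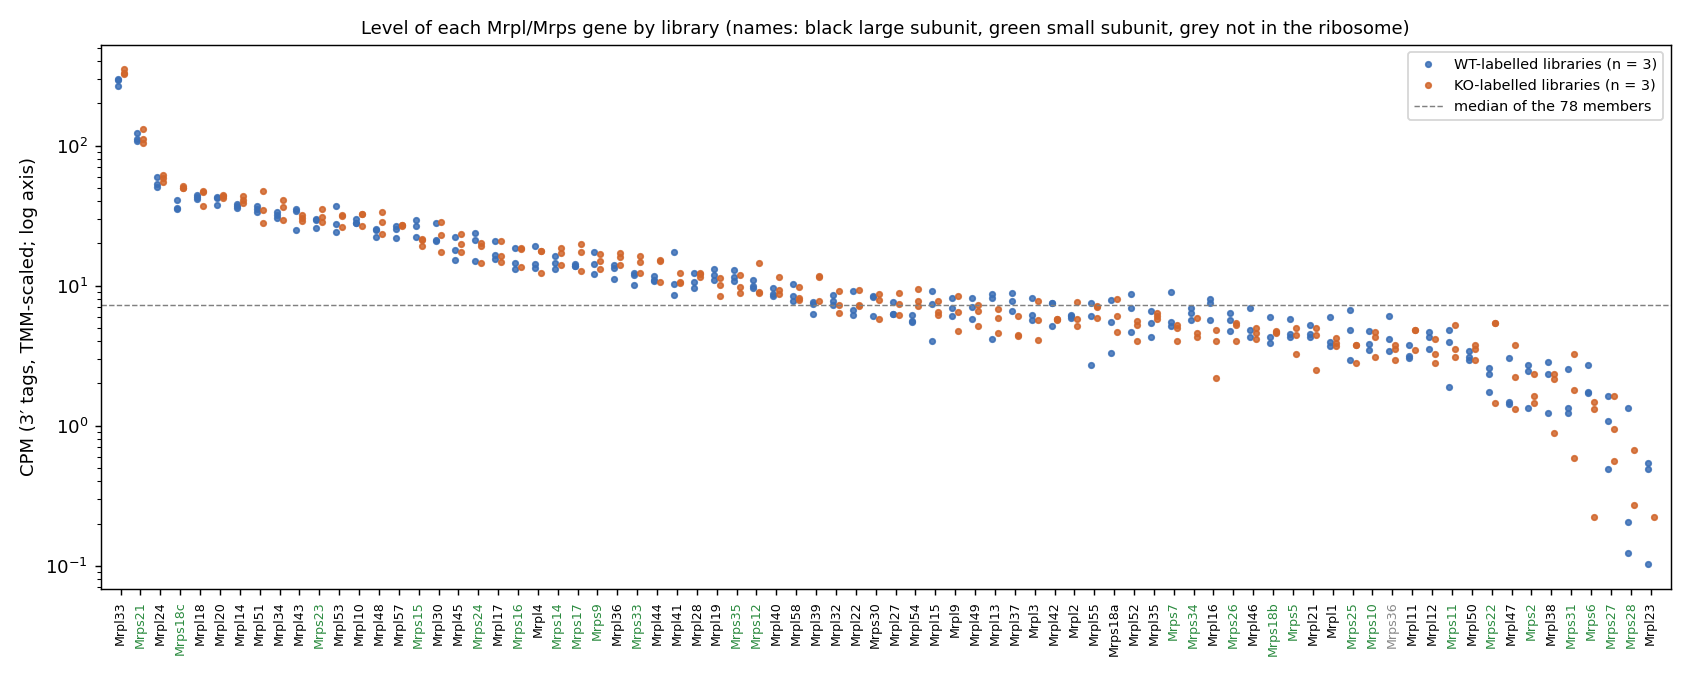
Level of each of the 78 genes (CPM, log axis) in the 3 WT-labelled and 3 KO-labelled libraries, ordered by mean, with the family median of 7.33 CPM as a dashed line. Mrpl33 and Mrps21 stand above 100 CPM, and libraries at 0 (KO 1 and KO 2 for Mrpl23, KO 2 for Mrps28) cannot be drawn on a log axis.

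Mrpl33, a small protein of the large subunit with a bacterial counterpart, was the most abundant by a wide margin. It stood at 294, 298 and 267 CPM in WT 1, 2 and 3 and at 350, 333 and 327 CPM in KO 1, 2 and 3. Its mean was 2.71 times that of Mrps21 and held 22.3% of the CPM of the family. The 10 most abundant genes together held 54.0%.

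Mrps21, a small-subunit protein with a bacterial counterpart, stood at 123, 112 and 109 CPM in WT 1, 2 and 3 and at 104, 112 and 131 CPM in KO 1, 2 and 3. The groups overlapped fully. Mrpl24, a large-subunit protein that lies near the exit of the peptide tunnel, stood at 53.6, 59.6 and 50.4 CPM in WT 1, 2 and 3 and at 58.9, 61.3 and 55.0 CPM in KO 1, 2 and 3. These 3 genes kept this order in every library. The lowest library of Mrpl33 lay above the highest of Mrps21, and the lowest of Mrps21 above the highest of Mrpl24. After these 3 genes, Mrps18c, Mrpl18 and Mrpl20 had means over all libraries of 43.9, 43.4 and 42.2 CPM. Mrpl18 (43.2 ± 1.44 and 43.7 ± 5.67 CPM in the WT-labelled and KO-labelled libraries) and Mrpl20 (41.0 ± 2.96 and 43.5 ± 1.11 CPM, SD, n = 3) overlapped within each group. Mrps18c lay below every Mrpl18 library in the WT-labelled group and above every Mrpl18 and Mrpl20 library in the KO-labelled group.

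Transcript levels of related or neighbouring ribosomal proteins were far apart. The bacterial small subunit protein S18 has a trio of mitochondrial relatives, of which Mrps18b and Mrps18c are in the small subunit and Mrps18a is in the large one. Mrps18c had a mean of 43.9 CPM, 9.35 times that of Mrps18b and 7.42 times that of Mrps18a. Mrps18b had means of 4.74 ± 1.13 CPM (WT-labelled) and 4.66 ± 0.066 CPM (KO-labelled; SD, n = 3), and Mrps18a had means of 5.57 ± 2.28 and 6.27 ± 1.71 CPM (SD, n = 3).

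The stalk of the large subunit, where translation factors bind, holds Mrpl10, Mrpl11 near its base and several copies of Mrpl12, which also binds the mitochondrial RNA polymerase. Mrpl10 was at 28.6 ± 1.01 and 30.4 ± 3.41 CPM in the WT-labelled and KO-labelled libraries, Mrpl11 at 3.34 ± 0.382 and 4.39 ± 0.805 CPM and Mrpl12 at 4.17 ± 0.608 and 3.39 ± 0.680 CPM (SD, n = 3). The mean of Mrpl10 was thus 7.64 times that of Mrpl11 and 7.81 times that of Mrpl12. Summed over genes, the large subunit held 1014 CPM and the small subunit 375 CPM, with median genes at 7.65 and 5.64 CPM.

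The low end of the family, by the counts of each row, included a gene with an identical copy elsewhere. Mrpl23, a large-subunit protein with a bacterial counterpart, had 4, 1 and 4 counts in WT 1, 2 and 3 and 0, 0 and 2 counts in KO 1, 2 and 3. A count of 0 allows up to 3 counts, or 0.404 CPM in KO 1 and 0.441 CPM in KO 2, for counting error only. Its processed pseudogene Mrpl23-ps1 had 520, 685 and 432 counts in WT 1, 2 and 3 and 429, 435 and 606 counts in KO 1, 2 and 3. Over the last 400 bases of Mrpl23, where 3′ tags fall, the copy and the gene are identical. Over 543 aligned bases they differ at 2, none of them among the 441 bases of the reading frame. The copy ends in 42 A bases, as reverse-transcribed messenger RNA does. Reads of such identical sequence cannot be told apart, so the counts do not show how much RNA came from either locus.

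The last 60 bases of the reading frame show the identity, with the stop codon in capitals. Mrpl23 has them at chr7:142540603-142540662 on the plus strand and the copy at chr2:74591452-74591511 on the minus strand of GRCm38.
Mrpl23: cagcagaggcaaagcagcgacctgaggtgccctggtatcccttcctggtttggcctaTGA
Mrpl23-ps1: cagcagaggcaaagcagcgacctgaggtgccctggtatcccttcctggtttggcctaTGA

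**Figure D2:**
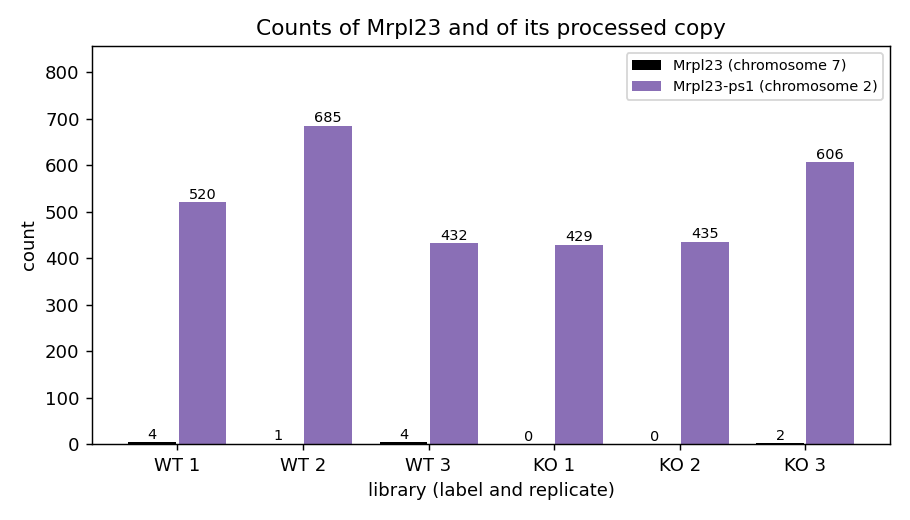
Counts given to Mrpl23 and to its processed copy Mrpl23-ps1 in each library (bars start at 0; 1 value per library, no error bars). The copy has 429 to 685 counts and the gene 0 to 4.

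Summing both rows gave 64.3, 70.1 and 58.8 CPM in WT 1, 2 and 3 and 57.8, 64.0 and 67.8 CPM in KO 1, 2 and 3. The groups overlapped, with a log2 fold change of -0.03 (SE 0.10, KO-labelled over WT-labelled) and adjusted p = 0.952 by edgeR's quasi-likelihood test. This sum was chosen after seeing the data. Its means were 64.4 and 63.2 CPM in the WT-labelled and KO-labelled libraries, above those of Mrpl24 (54.5 and 58.4 CPM). The place of Mrpl23 in the order of levels is therefore uncertain.

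Mrps27, which is specific to mitochondria, and Mrps28, which has a bacterial counterpart, are small-subunit proteins that also lay below the filter on low counts. Mrps27 stood at 0.491, 1.63 and 1.08 CPM in WT 1, 2 and 3 and at 0.944, 1.62 and 0.558 CPM in KO 1, 2 and 3. Mrps28 stood at 0.123, 0.204 and 1.35 CPM in WT 1, 2 and 3 and at 0.270, 0 and 0.670 CPM in KO 1, 2 and 3. For both, the groups overlapped.

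Comparing the groups asks whether the Snph label goes with a change in the genes of the mitochondrial ribosome. The counts of Snph given above do not show its removal. None of the 75 genes tested passed an adjusted p of 0.05 in either direction (edgeR quasi-likelihood test, adjusted over 10397 genes), where 107 genes, 1.03% of all tested, did (0.789% lower and 0.24% higher in the KO-labelled group). DESeq2 and limma-voom also called 0 members, against 1.38% and 0.789% of all genes. With no filter on low counts, 1 member, Mrps18c, was called, against 1.46% of all genes. At an unadjusted p under 0.05, 7 members were found, 9.33% against 11.4% of all genes. Of these, 3 were lower and 4 were higher, where 6.35% of all genes were lower and 5.03% higher. Values of the WT-labelled and KO-labelled libraries were fully separate for 12 members, 16% against 16.8% of all genes. Of the 12, 4 were lower and 8 higher, where 969 of all genes (9.32%) were lower and 778 (7.48%) higher. For both directions together, these shares lie near the background. By direction, more members were higher than lower, while more of all genes were lower than higher, a difference that was not tested.

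The members' fold changes were centred on 0. Their median log2 fold change was 0.02, against 0.01 for all genes tested, and quartiles ran from -0.20 to 0.15 against -0.18 to 0.14. The member median was -0.08 with scaling to total counts only, where the median of all genes was -0.10, and lay at 0.00 with upper-quartile factors. Fold changes were below 0 for 34 members and above 0 for 41, so that 45.3% lay below 0 against 49.1% of all genes. The large subunit had a median of 0.03 and the small subunit one of 0.02. The small-subunit median was below 0 in each fit that left out 1 library (-0.07 to -0.02), and with both of the scalings just named. Genes with a bacterial counterpart had a median of 0.03 and those specific to mitochondria one of 0.00.

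**Figure D3:**
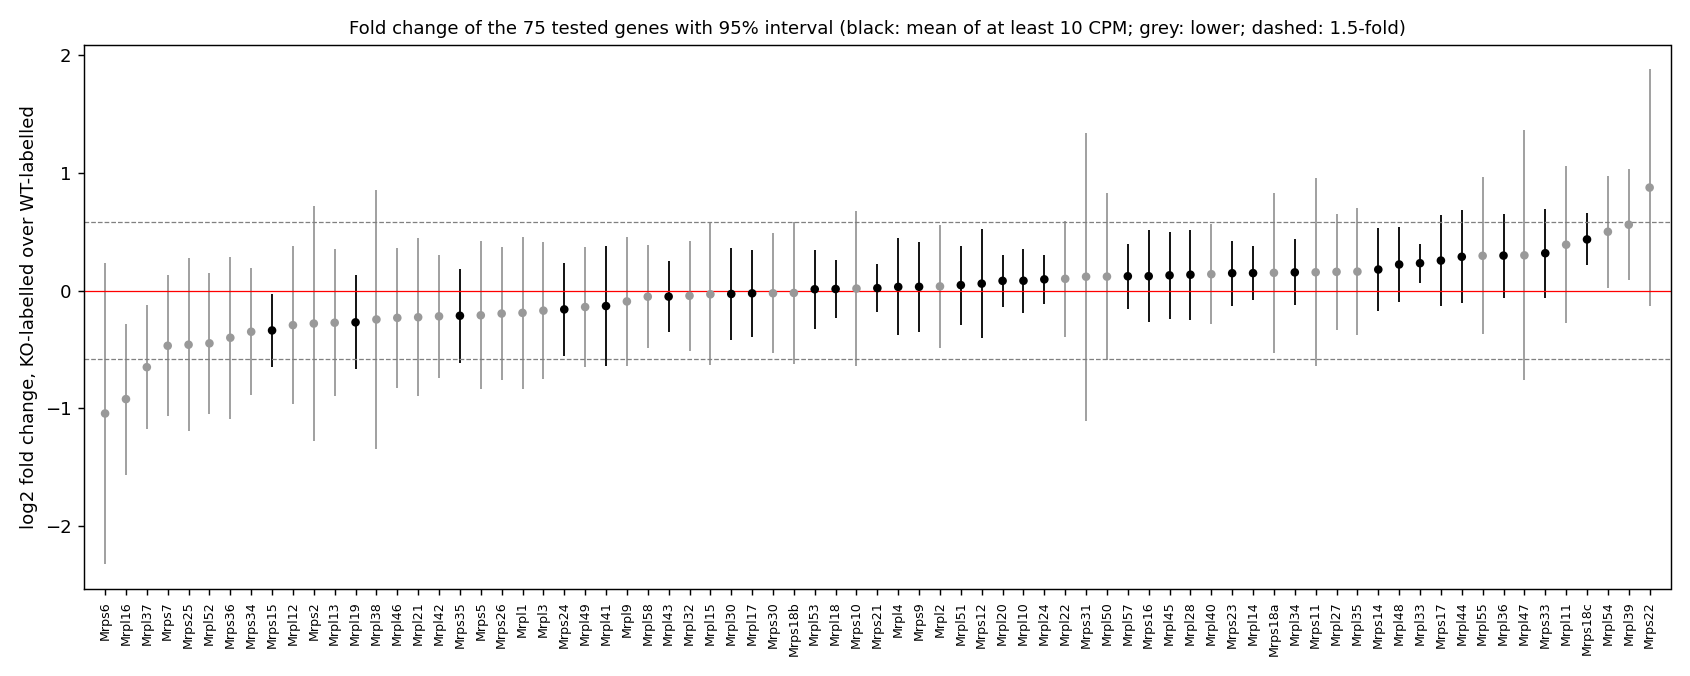
Log2 fold change (KO-labelled over WT-labelled) of the 75 tested genes in order, with 95% intervals, black for a mean of at least 10 CPM and grey for lower levels. The black points lie between -0.34 and 0.44, and the dashed lines mark 1.5-fold.

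How small a change could be seen depended on the level. For the 33 members with a mean of at least 10 CPM, the median standard error was 0.17 on the log2 scale, and the 95% interval lay within 1.5-fold in either direction for 24 of them (72.7%). For the 42 tested members below 10 CPM, the median standard error was 0.28, and the interval lay within 1.5-fold for 5. Over all 75, the interval lay within 2-fold for 61 and reached past it for 14, all of them below 10 CPM. For those 14 a 2-fold difference lay within the interval. The median coefficient of variation between WT-labelled libraries was 9.53% for the members of at least 10 CPM and 19.4% for the lower ones, where counting error alone gives 7.07% and 14.4%.

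Mrps18c, the S18 relative on the platform of the small subunit, had the smallest p of the family. Its exons overlap those of Gm43511 on the same strand, so reads may be shared. It stood at 35.5, 35.9 and 40.8 CPM in WT 1, 2 and 3 and at 51.355, 50.002 and 50.103 CPM in KO 1, 2 and 3. All KO-labelled libraries lay above all WT-labelled ones, with means of 37.4 ± 2.99 and 50.5 ± 0.754 CPM (SD, n = 3). The log2 fold change was 0.44 (SE 0.10, 95% interval 0.21 to 0.66), with adjusted p = 0.0676 by edgeR's quasi-likelihood test, which does not pass. Without the filter on low counts the adjusted p was 0.0261, which passes, and over all alternatives it ran from 0.0261 to 0.266.

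Mrpl33, whose levels in each library are given above, had means of 286 ± 16.8 CPM (WT-labelled) and 337 ± 12.1 CPM (KO-labelled; SD, n = 3). The groups did not overlap. The log2 fold change was 0.23 (SE 0.08, 95% interval 0.07 to 0.40, edgeR adjusted p = 0.223). Exons of Mrpl33 overlap those of Gm43809 on the same strand, so here too reads may be shared.

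Among the other members at an unadjusted p under 0.05, both large-subunit proteins with higher values were specific to mitochondria. Mrpl39 stood at 7.61, 6.23 and 7.41 CPM in WT 1, 2 and 3 and at 11.7, 7.79 and 11.6 CPM in KO 1, 2 and 3. KO 2 lay just above the highest WT-labelled library (log2 fold change 0.56, SE 0.22, edgeR adjusted p = 0.332). Mrpl54 stood at 5.52, 5.62 and 6.20 CPM in WT 1, 2 and 3 and at 7.14, 7.79 and 9.48 CPM in KO 1, 2 and 3. Here too the groups did not overlap (log2 fold change 0.50, SE 0.22, edgeR adjusted p = 0.408). Mrpl54 is named after its values were seen.

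The lower values belonged to Mrpl16, Mrpl37 and Mrps15. Mrpl16, a large-subunit protein near the peptidyl transferase centre, stood at 7.97, 7.56 and 5.66 CPM in WT 1, 2 and 3 and at 4.04, 2.21 and 4.80 CPM in KO 1, 2 and 3. No KO-labelled library reached the lowest WT-labelled one (log2 fold change -0.92, SE 0.30, 95% interval -1.56 to -0.28, edgeR adjusted p = 0.211). Mrpl37, a large-subunit protein specific to mitochondria, stood at 7.73, 6.64 and 8.89 CPM in WT 1, 2 and 3 and at 4.45, 6.03 and 4.35 CPM in KO 1, 2 and 3. The groups were separate (log2 fold change -0.65, SE 0.25, edgeR adjusted p = 0.308). Mrps15, a protein that binds the small-subunit ribosomal RNA, stood at 26.6, 22.4 and 29.5 CPM in WT 1, 2 and 3 and at 21.0, 19.3 and 21.5 CPM in KO 1, 2 and 3. WT 2 and KO 3 lay close together without crossing (log2 fold change -0.34, SE 0.14, edgeR adjusted p = 0.380).

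**Figure D4:**
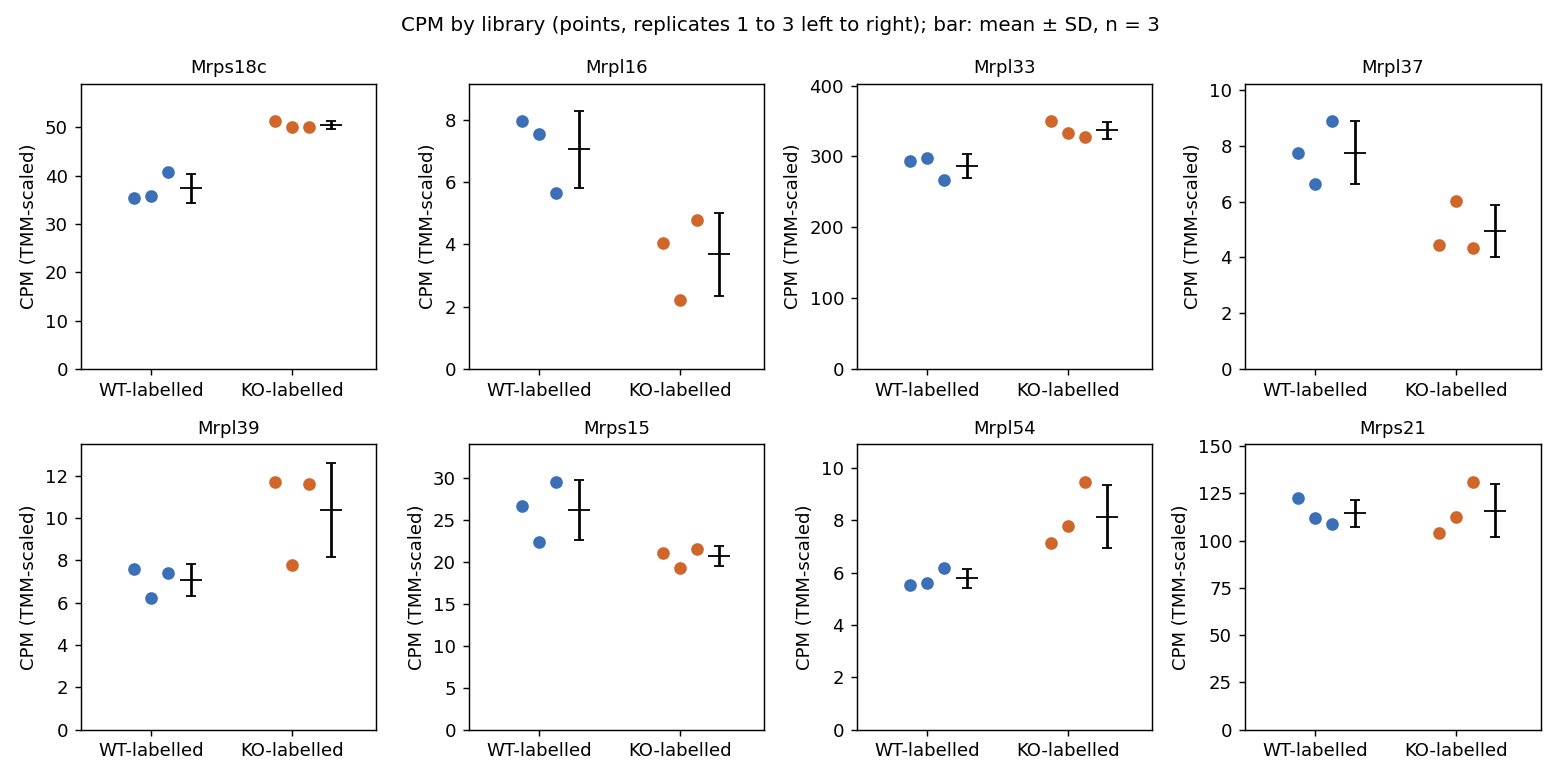
CPM in each library (points, with the mean ± SD of 3 libraries beside them) of the 7 genes with an unadjusted p under 0.05 and of Mrps21. Groups do not overlap for the 7 genes, which include Mrps18c at 35.5 to 40.8 against 50.002 to 51.355 CPM, and overlap for Mrps21.

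Fold changes of the other members with a mean of at least 10 CPM lay between those of Mrps15 and Mrps18c. Mrpl19 (log2 fold change -0.27, SE 0.19), Mrps35 (-0.21, SE 0.19) and Mrps24 (-0.16, SE 0.19) followed Mrps15 at the low end. At the high end, Mrps33 (0.32, SE 0.18), Mrpl36 (0.30, SE 0.17) and Mrpl44 (0.29, SE 0.19) followed Mrps18c. The groups did not overlap for Mrps33 and Mrpl36, nor for Mrpl14 (0.15, SE 0.11) and Mrpl57 (0.12, SE 0.13), the last pair named after their values were seen. Mrpl44 carries a fold of the RNase III family. The smallest edgeR adjusted p of these 6 was 0.540, that of Mrps33.

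No member named for its role was called by edgeR. The stalk proteins Mrpl10, Mrpl11 and Mrpl12 had log2 fold changes of 0.08 (SE 0.13), 0.39 (SE 0.31) and -0.29 (SE 0.32). Mrpl45, which helps to hold the ribosome at the inner membrane, had a log2 fold change of 0.13 (SE 0.17). Mrpl58, a peptidyl-tRNA hydrolase that is part of the large subunit, had one of -0.05 (SE 0.21). Mrps12, a protein of the decoding centre, had one of 0.06 (SE 0.22), and Mrps30 one of -0.02 (SE 0.24). Mrps36, which is not a ribosomal protein, had one of -0.40 (SE 0.32, edgeR adjusted p = 0.716), and of -0.15 without WT 3. The signs of Mrps12, Mrps30 and Mrpl58 changed when 1 library was left out, and that of Mrps12 with total-count scaling too.

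Of the 3 largest fold changes in size, those of Mrps6, Mrpl16 and Mrps22, the first and the last had intervals that include 0. Mrps6, with the lowest level of the tested genes, stood at 1.72, 1.74 and 2.70 CPM in WT 1, 2 and 3 and at 1.48, 1.32 and 0.223 CPM in KO 1, 2 and 3 (log2 fold change -1.04, SE 0.60, 95% interval -2.33 to 0.24, and -0.53 without KO 3). Mrps22, a small-subunit protein specific to mitochondria, stood at 2.33, 1.74 and 2.56 CPM in WT 1, 2 and 3 and at 5.39, 5.44 and 1.45 CPM in KO 1, 2 and 3 (log2 fold change 0.88, SE 0.47, 95% interval -0.13 to 1.88). KO 1 and KO 2 were high and KO 3 was below every WT-labelled library, and the value was 1.30 without KO 3 and 0.61 without KO 1 or without KO 2. Mrps22 is named after its values were seen. The other genes at the low end, Mrps31, Mrpl38 and Mrps2, had standard errors of 0.47 to 0.57.

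As a whole, the family's summed level depended on the scaling. It came to 1374, 1370 and 1307 CPM in WT 1, 2 and 3 and to 1465, 1452 and 1394 CPM in KO 1, 2 and 3. The groups did not overlap, with means of 1350 ± 37.55 and 1437 ± 38.01 CPM (SD, n = 3). Without Mrpl33 the sums were 1080, 1072 and 1040 CPM and 1115, 1120 and 1067 CPM in the same order, and the groups overlapped.

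As a share of all counts, the family held 0.142%, 0.139% and 0.138% in the WT-labelled libraries, then 0.141%, 0.138% and 0.136% in the KO-labelled ones, which overlapped. The shares left the KO-labelled mean just below the WT-labelled one (0.138% ± 0.0024 against 0.140% ± 0.0020, SD, n = 3), the reverse of the order of the summed CPM.

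Markers of several cell types, but not of all, differed between the groups. Genes are counted as lower or higher at an edgeR adjusted p under 0.05, where 0.789% of all genes were lower and 0.24% higher. Markers of tissue macrophages were lower in the KO-labelled libraries for 11 of 13 genes, with sums of 1572 to 1660 CPM (WT-labelled) and 830 to 997 CPM (KO-labelled). Neutrophil markers, which include Ltf and Camp, were higher for 2 of 16, with sums of 288060 to 309340 and 329070 to 350810 CPM. Platelet markers were lower for 3 of 7 tested, with sums of 141 to 162 and 63.2 to 98.7 CPM, and 1 of the 8 listed was at 0 in all libraries. B cell and plasma cell markers were higher for 2 of 12, with sums of 295 to 319 and 402 to 851 CPM. Eosinophil and basophil markers were lower for 1 of 4 tested, with sums of 48.3 to 70.3 and 29.6 to 42.6 CPM. Monocyte and dendritic cell markers were lower for 1 of 9 tested, with overlapping sums of 1628 to 1835 and 1635 to 1790 CPM. Neutrophil precursor markers were called for 0 of 16 by edgeR, with sums of 829 to 895 and 783 to 818 CPM. Of these, 1 was at an unadjusted p under 0.05, where 11.4% of all genes were. Erythroid markers were called for 0 of 10 tested, with overlapping sums of 1303 to 2146 and 1417 to 2806 CPM. T and NK cell markers were called for 0 of 2 tested, with overlapping sums of 32.1 to 41.2 and 38.55 to 44.6 CPM. Whether called or not, fold changes were below 0 for all 13 macrophage, all 7 platelet, and 8 of 9 monocyte and dendritic cell markers. They were below 0 for 11 of 16 precursor and 4 of 10 erythroid markers, and above 0 for 15 of 16 neutrophil markers. Those of B and plasma cells split 6 and 6, of eosinophils and basophils 2 and 2, of T and NK cells 1 and 1. The part of all these cell types in the members' values was not tested.

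**Figure D5:**
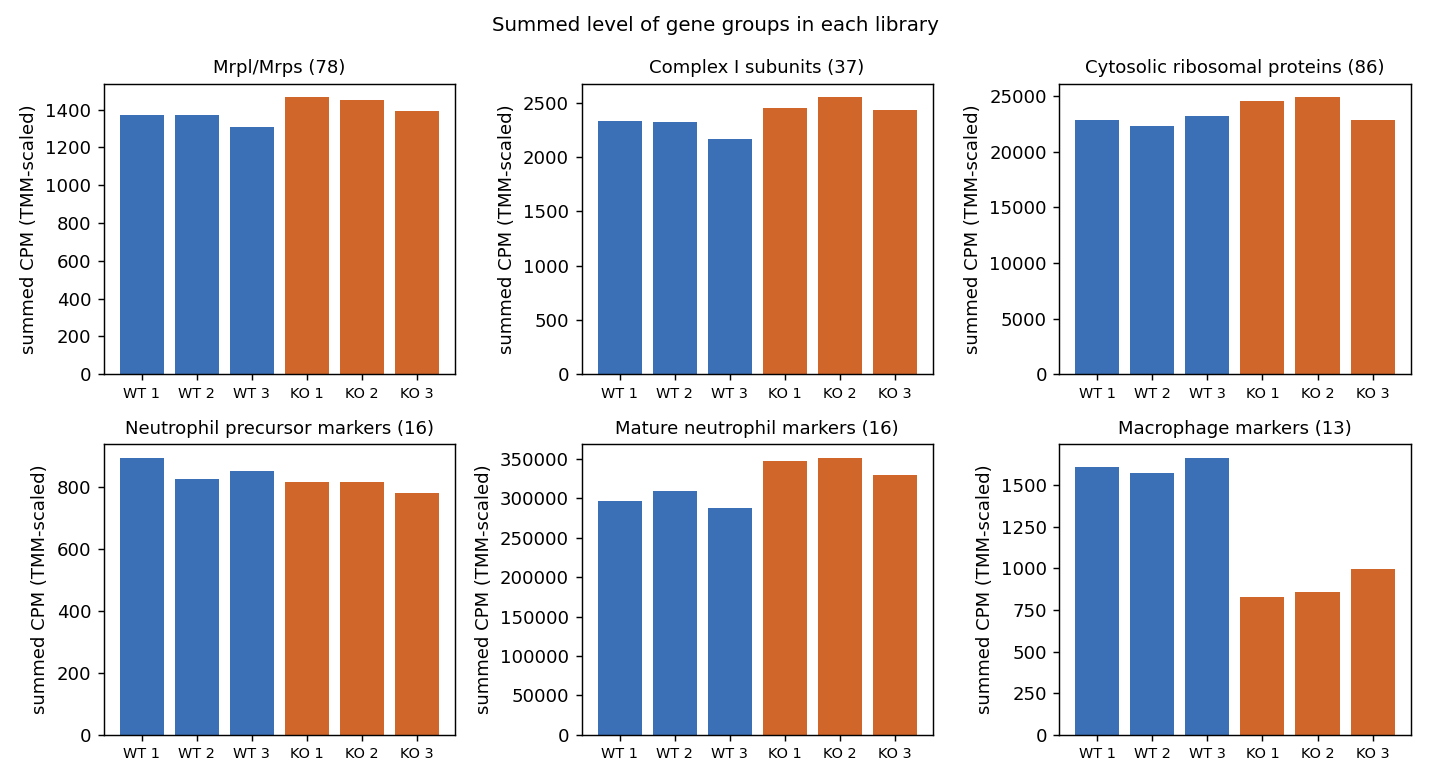
Summed CPM per library of the 78 Mrpl/Mrps genes, 37 complex I subunit genes, 86 cytosolic ribosomal protein genes and 3 marker lists (bars start at 0; 1 value per library, no error bars). The Mrpl/Mrps sum runs from 1307 to 1374 CPM (WT-labelled) and 1394 to 1465 CPM (KO-labelled), and the macrophage markers from 1572 to 1660 and 830 to 997 CPM.

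Among other genes needed for mitochondrial translation, median levels were 10.5 CPM for the ribosome proteins with other names, 2.30 CPM for translation factors, 1.54 CPM for tRNA synthetases, 2.29 CPM for assembly factors and 3.89 CPM for genes of mitochondrial DNA expression, against 7.33 CPM for the members. None of the 54 tested was called by edgeR, DESeq2 or limma-voom (2 at an unadjusted p under 0.05 by edgeR, where 11.4% of all genes were). The 5 ribosome proteins with other names had a median log2 fold change of 0.09. Of these, Dap3, a GTP-binding protein of the small subunit, was at 28.5 ± 1.07 and 30.3 ± 4.86 CPM in the WT-labelled and KO-labelled libraries, and Aurkaip1 at 88.8 ± 3.98 and 91.0 ± 4.04 CPM (SD, n = 3). Gadd45gip1, of the large subunit, had the lowest fold change (log2 -0.53, SE 0.38, edgeR adjusted p = 0.668), which was -0.18 without WT 1 and -0.23 without KO 1. Ptcd3 and Chchd1 had values of 0.19 (SE 0.30) and 0.18 (SE 0.24).

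Translation factors were tested for 11 of 16 listed genes, with a median log2 fold change of -0.03. Gfm1, an elongation factor, had the smallest p (log2 -0.54, SE 0.32, edgeR adjusted p = 0.573), Mtif2, an initiation factor, had a log2 fold change of -0.31 (SE 0.40), and Oxa1l, the insertase of the inner membrane and the most abundant of the list, one of 0.03 (SE 0.17). Mitochondrial aminoacyl-tRNA synthetases and amidotransferase subunits were tested for 12 of 20, with a median of -0.06. Fars2, which charges phenylalanine tRNA, was at 2.33, 2.66 and 1.48 CPM in WT 1, 2 and 3 and at 0.270, 1.62 and 1.23 CPM in KO 1, 2 and 3. The groups overlapped (log2 -1.06, SE 0.57, edgeR adjusted p = 0.524, and log2 -0.62 without KO 1). Cars2, for cysteine and the most abundant of the list, had a log2 fold change of -0.14 (SE 0.22).

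Assembly factors of the mitochondrial ribosome were tested for 17 of 27, with a median log2 fold change of -0.07. Mtg2, a GTPase that acts on the large subunit, was at 9.08, 9.81 and 7.14 CPM in WT 1, 2 and 3 and at 5.12, 4.85 and 6.81 CPM in KO 1, 2 and 3. These groups did not overlap (log2 -0.63, SE 0.23, edgeR adjusted p = 0.303). Rbfa, which acts on the small subunit, was the most abundant of the list, at 149 ± 9.90 and 141 ± 11.4 CPM (SD, n = 3), and Mpv17l2 had a log2 fold change of 0.25 (SE 0.18).

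Genes of mitochondrial DNA expression were tested for 9 of 13, with a median log2 fold change of 0.01. Tfb2m, a transcription initiation factor, was at 3.56, 6.23 and 5.79 CPM in WT 1, 2 and 3 and at 3.37, 3.53 and 2.68 CPM in KO 1, 2 and 3. KO 2 and WT 1 nearly met (log2 -0.71, SE 0.32, edgeR adjusted p = 0.409). Tfam, which packages mitochondrial DNA, had a log2 fold change of 0.31 (SE 0.30), and Polg, the mitochondrial DNA polymerase, one of 0.01 (SE 0.11).

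The gene groups most like the family also had no called gene by edgeR. Cytosolic ribosomal proteins, 84 tested, had a median log2 fold change of 0.06, with 25 below and 59 above 0, and 6 at an unadjusted p under 0.05. Complex I subunits, 36 tested, had a median of 0.12, with 8 below and 28 above 0, and 3 at an unadjusted p under 0.05. DESeq2 called 1 gene of these groups, Rps27a. Of all genes tested, 11.4% had an unadjusted p under 0.05 by edgeR. The mitochondrial ribosomal genes, at 34 below and 41 above 0, were nearest to the split of all genes, and the difference between the groups of genes was not tested.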

How the data were processed

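Gene expression was measured with QuantSeq libraries in neutrophils of mouse bone marrow, 3 samples WT-labelled and 3 KO-labelled. The authors deposited unscaled whole-number counts for each Ensembl gene. The submitters' processing notes name RSEM 1.2.3, DESeq2 and mm10 without a role or order. The aligner, annotation release, strand setting and filters were not given in the sources used here. Reads of overlapping or antisense genes may therefore be shared.

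Columns were matched to samples by name and genes to GENCODE vM21 (GRCm38, 51596 of 51789 identifiers named). The test was edgeR's quasi-likelihood test (version 4.0.16, R 4.3.3, glmQLFit and glmQLFTest), with TMM factors, the default filterByExpr filter (at least 10 counts, total of at least 15), and p adjusted by Benjamini-Hochberg over 10397 tested genes at a threshold of 0.05. Members' rows were read from this fit. The procedure was tested on simulated data. No pair of replicates agreed within sampling noise (chi-square per degree of freedom 4.12 to 6.79). Copies of the last 400 bases of member transcripts were sought in transcripts of other genes, at an identity of at least 95% over at least 200 bases.

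The members and gene lists were chosen with earlier results of these data known. Named were Snph, the 6 members with the smallest p, the 4 with the largest change either way at 10 CPM or more, the 6 most and 4 least abundant tested, those not tested, members with a known role, and 3 genes or more per pathway list, of which 1 is not reported here. The alternatives tried were DESeq2 1.42.0, limma-voom (limma 3.58.1), scaling by total counts only or by RLE or upper-quartile factors, filtering at 5 CPM in 3 libraries or not at all, a block for the replicate number, leaving out each library, the family's share without the 10 most counted genes, leaving out members that overlap another gene on the same strand, and Mrpl23 summed with its copy.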

Additional observations from a re-analysis of the deposited data

How the results depend on the processing

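All genes called numbered 107, against 162 with total counts only (144 lower and 18 higher, against 82 and 25), 287 with no filter and 49 to 97 without 1 library, lowest without WT 2. Without WT 1, WT 3, KO 1 and KO 2 there were 57, 62, 67 and 61. Called members numbered 1 (Mrps18c) with no filter and 0 in the other alternatives run. The member median log2 fold change was 0.0211, against -0.0021 with upper-quartile factors, -0.0814 with total counts only, -0.0094 to 0.0657 without 1 library (below 0 without KO 1) and 0.0316 over the 67 members with no same-strand overlap. The large-subunit median was -0.0699 with total counts only and -0.0034 to 0.107 without 1 library, and the small-subunit median was -0.004, -0.0841 and -0.0683 to -0.0151 with upper-quartile factors, total counts only and 1 library left out. The ratio of the family's share of counts, KO-labelled over WT-labelled, was 0.990, and 1.016 without the 10 most counted genes. Among cytosolic ribosomal and complex I genes, DESeq2 called 1 (Rps27a), no filter 1 (Rpl12), and fits without 1 library 0 to 1 (Rpl12, without KO 1). The cause of these shifts was not tested.

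Of 375 values of 49 named genes under alternatives with all libraries, 355 kept their direction and call, 19 turned direction and 1 gained a call. With total counts only, log2 fold changes turned to -0.0814 for Mrps21, -0.007 for Mrpl24, -0.0905 for Mrpl18, -0.0196 for Mrpl20, -0.0211 for Mrpl10, -0.0453 for Mrps12, -0.0177 for Dap3, -0.0694 for Aurkaip1, -0.0722 for Oxa1l and -0.0961 for Polg. With upper-quartile factors they turned to -0.0021 for Mrps21, -0.0084 for Mrpl18 and -0.0148 for Polg, with limma-voom to -0.005 for Mrpl18, -0.0815 for Mrps31, 0.0166 for Mrps18b and -0.0011 for Polg, and with the filter of 5 CPM to -0.0052 for Mrpl18 and -0.011 for Polg. Of 294 values without 1 library, 29 turned direction. The ranges of the genes concerned were -0.0823 to 0.0934 for Mrps21, -0.0451 to 0.1182 for Mrpl18, -0.4945 to 0.5432 for Mrps31, -0.5314 to 0.0956 for Mrpl38, -0.1122 to 0.5049 for Mrps18a, -0.1488 to 0.1887 for Mrps18b, -0.17 to 0.1378 for Mrps30, -0.1445 to 0.0794 for Mrpl58, -0.2024 to 0.1857 for Mrps12, -0.0111 to 0.3915 for Ptcd3, -0.0168 to 0.442 for Chchd1, -0.0044 to 0.0582 for Aurkaip1, -0.6736 to 0.0113 for Mtif2, -0.1175 to 0.1174 for Oxa1l, -0.2926 to 0.076 for Cars2 and -0.0914 to 0.07 for Polg. None of these genes was called in any fit.

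Deviations of same-numbered libraries correlated at -0.131 to -0.012, and those of differently numbered libraries at -0.17 to 0.183. This gave no sign of pairing by replicate number but cannot exclude it. With the replicate block 92 genes were called, 0 of 75 members, the member median was 0.0249 and the adjusted p of Mrps18c was 0.112. Depth limits the 42 members below 10 CPM most.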

Other observations

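Several members share sequence or exons with other genes. Exons of 8 members overlap another gene on the same strand and those of 28 overlap one on the opposite strand, per GENCODE vM21. The 8 include Mrpl33, with Gm43809, and Mrps18c, with Gm43511. Mrps34 overlaps Nme3, a nucleoside diphosphate kinase gene, and the last 400 bases of a Mrps34 transcript are found unchanged in a Nme3 transcript. Mrps34 held 277 counts over the 6 libraries and Nme3 held 656, so their split is uncertain. Of the other near-identical copies found with a row in the table, Gm15946, a pseudogene copy of Mrps18c, held the most, 14 counts against 2113 for Mrps18c.

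Some members overlap mitochondrial or other well-known genes on the opposite strand. Mrpl36 overlaps Ndufs6, a complex I subunit gene, which stood at 60.005 ± 1.52 and 67.8 ± 7.30 CPM in the WT-labelled and KO-labelled libraries (SD, n = 3), against 12.9 ± 1.45 and 15.7 ± 1.499 CPM for Mrpl36. Mrpl43 overlaps Twnk, the gene of the mitochondrial DNA helicase, at 1.86 ± 0.612 and 2.41 ± 1.40 CPM, against 31.5 ± 5.57 and 30.5 ± 1.58 CPM for Mrpl43. Mrpl18 overlaps Tcp1, a subunit of the cytosolic chaperonin, at 23.4 ± 1.86 and 16.7 ± 2.47 CPM (log2 fold change -0.49, SE 0.15, edgeR adjusted p = 0.185), against 43.2 ± 1.44 and 43.7 ± 5.67 CPM for Mrpl18. Mrpl46 and Mrps11 overlap each other, at means of 4.98 and 3.76 CPM. Without the strand setting, reads from such partners cannot be told apart.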
